A study of Drosophila melanogaster with 12 samples.

Results

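Wing imaginal discs of Drosophila melanogaster that were regenerating after induced apoptosis were compared with undamaged discs collected at the same time, 25 h after induction, a time the study chose to reach the stage when the tissue has been patterned again. Genes counted as members when their FPKM, its fragment count scaled to transcript length and library size, was above 0 in both groups. There were 7603 such genes among the 17158 listed. For Act5C the regenerating value could be read in more than 1 way and it was set aside. A further 1471 genes were listed at 0 in control discs alone, 93 in regenerating discs alone and 7991 in both. Those listed at 0 in control discs alone had a median of 0.79 FPKM in regenerating discs, and 122 of them reached 5 FPKM. They are left out of every ratio below, because a listed 0 in this table can be a failed estimate.

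The discs came from larvae in the third instar, and poly(A) RNA of 40 discs made 1 library. Each group held 2 libraries, so the comparison at 25 h rests on 4 of the 12 libraries of the study, the rest having been taken at 0 h and 15 h. In regenerating discs apoptosis had been induced, and control discs went through the same conditions without cell death. The labels call the groups regeneration and control genotypes and do not name the alleles, the driver or the gene used to kill cells. Genotype thus differs together with regeneration, and their parts in a ratio cannot be told apart. Each library pools many whole discs, so fewer cells of a type and less RNA per cell cannot be told apart. The values are the authors' merged values, 1 per gene and group, so nothing below has a replicate check and no p-value could be computed. The control column at 0 h has fewer decimals than the others, and how it was made bears on each value at 0 h.

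The larval wing disc is an epithelial sac whose pouch forms the wing blade, surrounded by hinge and notum territories, with muscle precursors and tracheal cells attached. After part of the pouch dies, neighbouring cells divide, lose and regain their patterning genes, and rebuild the missing territory. JNK and JAK/STAT signalling, Wingless and the growth regulator Myc are known to act early in this process, while larval development is held back until tissue has been replaced. Genes of the wing disc itself were detected in both groups: 10 territory markers fixed for the check, among them vg, nub and hth, summed to 274 FPKM in control and 223 in regenerating discs, and none was at 0.

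A gene was called higher or lower when log2 of (FPKM + 1) in regenerating over (FPKM + 1) in control discs was at least 1 or at most -1, with at least 1 FPKM in 1 or both groups. By this rule of size, 122 of 7477 genes were higher, or 1.63%, and 209 were lower, or 2.8%. All log2 ratios below are on this scale, where the added 1 FPKM makes the change of low genes look smaller than it is. The median log2 ratio over all 7477 genes was 0.07, and the quartiles were -0.25 and 0.32, so most genes stood close to equal. When the columns were scaled by the median of ratios the calls became 107 higher and 238 lower, and with equal sums 90 and 236. Lower genes made up the greater part of the calls under these scalings. With a rule of 4-fold the calls were 19 higher and 8 lower, and with genes listed at 0 in 1 column kept 742 higher and 260 lower, so under these settings the balance turned.

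**Figure D1:**
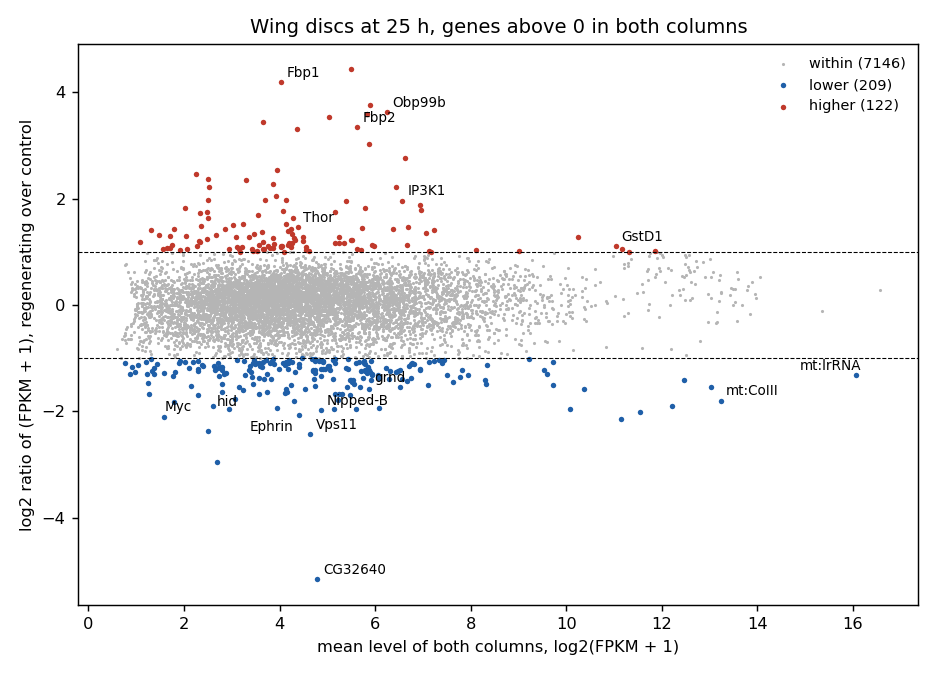
Each point is 1 of 7477 genes, with the mean log2(FPKM + 1) of control and regenerating discs at 25 h on the horizontal axis and the log2 ratio on the vertical axis; dashed lines mark 1 and -1. The 122 higher genes reach 4.43 and the 209 lower genes reach -5.16, with a wide band of 7146 genes between the lines.

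At the earlier times more genes were higher than lower by the same rule, whereas at 25 h the balance depended on the settings just given. At 15 h, 430 of 7949 genes were higher, or 5.41%, and 84 lower, or 1.06%. At 0 h, 546 of 7957 were higher, or 6.86%, and 71 lower, or 0.892%. The median ratios at these times were 0.35 and 0.47, so ratios at 0 h and 15 h start from a raised middle and are set beside those at 25 h with this in mind. Of the 209 genes lower at 25 h, 48 were also lower at 15 h, which is 22.97% of the 25 h genes and 57.1% of the 15 h genes, and 130 were lower at 25 h alone. Of the 122 higher genes, 51 were also higher at 15 h, or 41.8% of the 25 h genes and 11.9% of the 15 h genes, and 58 were higher at 25 h alone. In each direction 26 genes passed the rule at all 3 times.

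Among the 209 lower genes the median FPKM in control discs was 21.4, 35.0 and 39.7 at 0 h, 15 h and 25 h. In regenerating discs the same genes had medians of 25.2, 27.7 and 15.2. The gap at 25 h is what the rule chose. At 0 h all measured genes had medians of 12.4 FPKM in control and 17.9 in regenerating discs, and relative to all genes the median log2 ratio of the 209 was -0.06 at 0 h and -0.89 at 15 h. Among the 122 higher genes control medians were 7.89, 8.02 and 8.82 and regenerating medians were 14.1, 17.1 and 28. Between 15 h and 25 h, 165 of 7982 genes became lower in regenerating discs, or 2.07%, and 93 became higher, or 1.17%. In control discs 9 of 7477 genes became lower, or 0.12%, and 25 became higher, or 0.334%.

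Lower genes were frequent in certain stretches of the genome, which were singled out after the values were seen. Chromosome 4, a very small chromosome of the fly, is packed largely as heterochromatin but carries expressed genes. Of its 63 measured genes 17 were lower and 0 higher, a share well above the 2.8% of all genes, and only 5 of the 63 lay above the median of all genes. The median log2 ratio on chromosome 4 was -0.61, or -0.68 relative to all genes. At 15 h the same relative median was -0.54 and at 0 h -0.23, with 4 and 0 genes lower at those times.

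The lowest gene there was Ephrin (4:571755-580122), which codes for a membrane-bound ligand that guides cells and axons through the Eph receptor. Its FPKM in control discs was 13.2, 46.8 and 42.5 at 0 h, 15 h and 25 h, against 36.6, 38.9 and 9.37 in regenerating discs, and the log2 ratio at 25 h was -2.07. Ephrin was thus above control at 0 h and below it at 25 h. Its receptor Eph (4:610684-622470) had 40.8 FPKM in control and 16.1 in regenerating discs at 25 h, a log2 ratio of -1.29. At 15 h Eph had stood at 38.03 in control and 49.8 in regenerating discs, a log2 ratio of 0.38. The median over all genes at 15 h was 0.35, so Eph was near the middle then and below it at 25 h. Ligand and receptor lie on the same chromosome, within the 17 lower genes.

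Other lower genes of chromosome 4 have varied functions. Cals, which codes for the calsyntenin of neuronal membranes, was at 78.3 FPKM in control and 23.7 in regenerating discs. MED26, a subunit of the Mediator that links activators to RNA polymerase II, was at 69.8 and 21.1. The TGF-beta family ligand myo was at 66.8 and 20.3 FPKM, and the single-stranded nucleic acid binding protein Pur-alpha at 100.6 and 33.0. The kinases CaMKI and Dyrk3 were at 153 against 57.9 and at 54.9 against 20.4 FPKM. 4E-T, which binds the cap-binding protein eIF4E, was at 51.3 and 23.7, and Mitf, a transcription factor of lysosomal genes, at 41.6 and 19.6. Just short of the rule stood ci, the transcription factor of the Hedgehog pathway, at 58.7 and 29.1 FPKM with a log2 ratio of -0.99. Among the highest expressed genes of the chromosome the ribosomal protein gene RpS3A had 4752 FPKM in control and 5772 in regenerating discs, with a log2 ratio of 0.28.

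The same direction was seen near the centromeres of the large autosomes. Windows of 2 Mb on 2L, 6 Mb on 2R, 5 Mb on 3L and 4 Mb on 3R, measured from the centromeric end of each arm and set after the values were seen, held 128 measured genes, of which 28 were lower and 2 higher. Their median log2 ratio was -0.56, or -0.63 relative to all genes, while the chromosome arms outside the windows had 154 of 7113 genes lower and a relative median of 0.01. The 2 Mb of the X nearest its centromere held 24 measured genes and 0 of them passed the rule in either direction. With a uniform window of 5 Mb on all 5 arms, 25 of 524 genes were lower and the relative median was -0.08, so the count depends on the widths. The relative median in the first windows was -0.67 at 15 h and -0.10 at 0 h.

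Several genes of these windows act on chromosomes and membranes. Nipped-B (2R:4691672-4729017), which loads cohesin onto chromatin, had 18.9, 66.2 and 57.2 FPKM in control and 39.9, 38.2 and 13.7 in regenerating discs at 0 h, 15 h and 25 h, with a log2 ratio of -1.98 at 25 h. vtd (3L:27136525-27157999), a cohesin subunit, was at 71.9 and 33.9 FPKM with a log2 ratio of -1.06. These were the 2 lower genes among 10 measured cohesin genes; the other 8 had a median 0.06 above that of genes outside the windows and chromosome 4. Parp1 (3R:3461351-3587054), which adds poly(ADP-ribose) to proteins at damaged and active chromatin, was at 93.9 and 23.5 FPKM, with a log2 ratio of -1.95.

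Vps11 (3L:23147656-23150499) and lt (2L:22924795-22943135) code for subunits of the complex that tethers vesicles to lysosomes. Vps11 had 29.6, 76.4 and 57.1 FPKM in control discs and 23.6, 20.6 and 9.79 in regenerating discs, below control at each time, with a log2 ratio of -2.43 at 25 h. lt was at 45.8 and 17.5 FPKM at 25 h. The other 14 measured genes of the tethering and retromer lists did not pass the rule. Further genes of the windows were p120ctn, a catenin bound to E-cadherin, at 165 and 60.8 FPKM, the magnesium transporter gene uex at 68.4 and 19.1, the G protein gene cta at 74.2 and 26.7, the stress sensor gene Atf6 at 62.5 and 27.1, and CkIIalpha, the catalytic subunit of casein kinase II, at 481 and 220. Together chromosome 4 and the windows held 45 of the 209 lower genes among 191 measured, and the rest of the genome 164 among 7286.

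**Figure D2:**
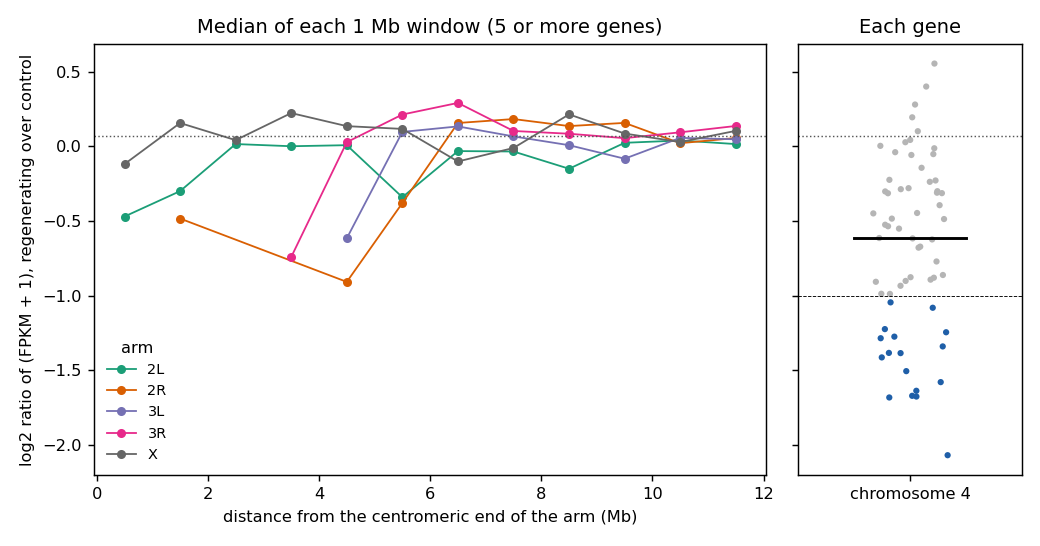
Left, the median log2 ratio at 25 h of the genes in each 1 Mb window against distance from the centromeric end of 5 chromosome arms, for windows of 5 or more genes; right, each measured gene of chromosome 4, with its median as a bar. Medians near the ends of 2L, 2R, 3L and 3R lie below the dotted line, the median of all genes at 0.07, while those of the X stay near it; the chromosome 4 genes centre on -0.61.

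Length moved with the ratio as well. The median exonic length was 2293 bases for lower genes, 1358 for higher genes and 2145 for all. Genes were split into 10 bins by exonic length. The longest bin, from 5781 bases up, held 733 genes, with a median log2 ratio of -0.18. Of these 0 were higher and 23, or 3.14%, were lower. In the shortest bin 29 of 736 genes were higher, or 3.94%, and 27 lower, or 3.67%, with a median of 0.10. The share of lower genes was thus no greater in the longest bin than in the shortest, while the share of higher genes was smaller. Chromosome 4 genes have a median exonic length of 3971 bases. Relative to genes of like exonic length their median log2 ratio was -0.63 and that of the centromeric windows -0.60. The part of base composition in these ratios was not tested.

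Growth control genes of the insulin, TOR and Myc list had 1 member higher and 5 lower of 22 measured, with a median 0.39 below that of all genes. Myc, the transcription factor that drives ribosome production and cell growth, was at 3.05, 9.87 and 7.79 FPKM in control discs and at 5.12, 14.8 and 1.72 in regenerating discs at 0 h, 15 h and 25 h. Its log2 ratios at 0 h and 15 h were 0.59 and 0.54, not far above the medians of 0.47 and 0.35 over all genes. At 25 h Myc had the lowest value of its series in regenerating discs, with a log2 ratio of -1.69. chrb and scyl, inhibitors of TOR induced by stress and hypoxia, were at 20.2 against 5.63 and at 86.6 against 29.0 FPKM, with log2 ratios of -1.68 and -1.54. At 15 h their ratios were -0.29 and -0.09, already below the median of 0.35 over all genes.

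Pi3K21B, the adaptor subunit of PI3-kinase, was lower too, at 14.7 and 6.68 FPKM. The member above the rule was Thor, the repressor of the cap-binding factor eIF4E, at 8.77, 7.66 and 11.5 FPKM in control and 14.4, 19.8 and 33.5 in regenerating discs. Thor was higher at 15 h too, with a log2 ratio of 1.26, and reached 1.46 at 25 h. Akt and foxo stood at log2 ratios of -0.95 and -0.84, short of the rule, and chico, mTor and Tsc1 between 0.08 and 0.17.

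**Figure D3:**
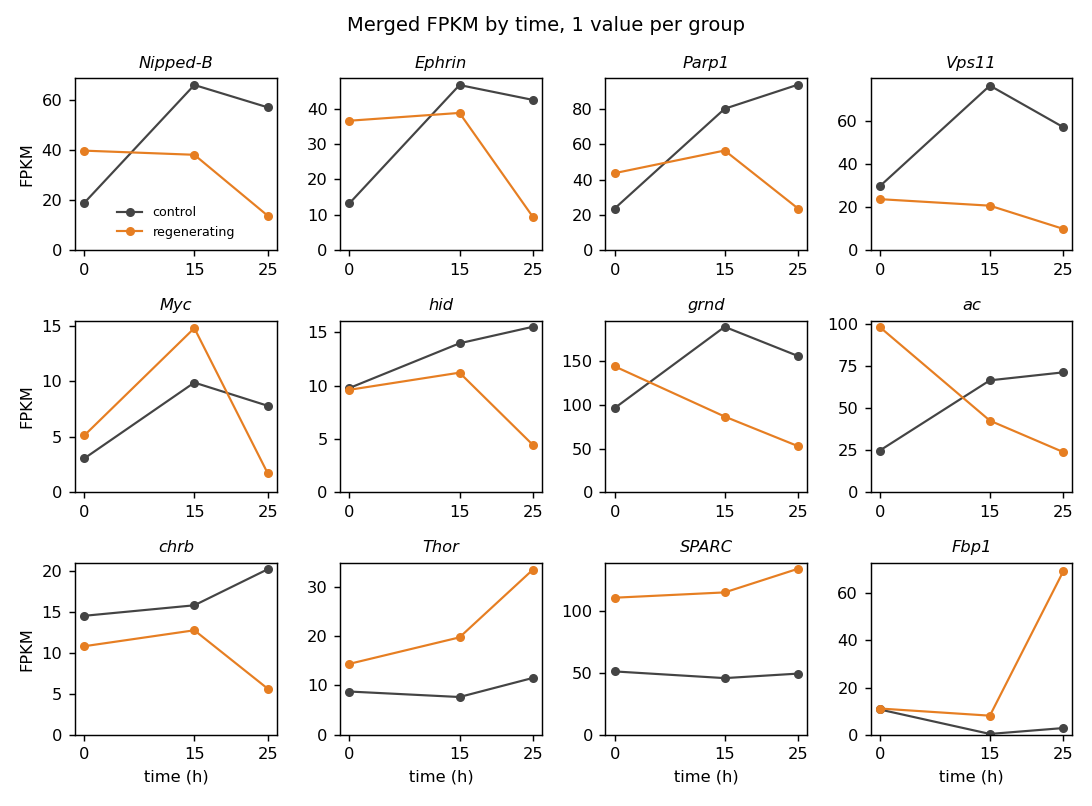
Merged FPKM of 12 genes at 0 h, 15 h and 25 h in control (dark) and regenerating (orange) discs, 1 value per group and time, each panel with its own axis from 0. The first 9 genes lie below control at 25 h, and Thor, SPARC and Fbp1 lie above. Of the first 9, Nipped-B, Ephrin, Parp1, Myc, grnd and ac lie above control at 0 h. The median log2 ratio over all genes was 0.47 then, and Myc and grnd, at 0.59 and 0.58, stood near it.

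Genes of cell death and of TNF signalling were near the middle apart from single members. hid, an inhibitor of the caspase inhibitor Diap1, was at 15.5 FPKM in control and 4.45 in regenerating discs, a log2 ratio of -1.60. At 0 h and 15 h hid had stood at 9.78 and 13.97 in control and 9.61 and 11.2 in regenerating discs. Its log2 ratios then were -0.02 and -0.29, already below the medians of 0.47 and 0.35 over all genes at those times. The related gene rpr, at 11.5 FPKM in control and 108 in regenerating discs at 0 h, was at 29.5 and 15.2 at 25 h, a log2 ratio of -0.92. Of 13 death genes hid alone passed the rule, and the median of the list was 0.01 below that of all genes.

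grnd, the receptor for the fly TNF Eiger, was the 1 of 21 TNF and JNK genes past the rule. It had 96.4, 189 and 156 FPKM in control and 144, 86.7 and 52.8 in regenerating discs at the 3 times, with a log2 ratio of -1.54 at 25 h. The ligand gene egr stood at 2.52 and 4.88 FPKM, the JNK phosphatase gene puc at 7.44 and 5.92, and the metalloprotease gene Mmp1 at 15.01 and 16.57, all inside the rule. The JAK/STAT list had 0 of 9 genes past the rule. Its ligand upd1 was at 2.29 and 3.94 FPKM and its feedback inhibitor Socs36E at 14.2 and 12.6.

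The lists of the EGFR, Notch, Wingless, Dpp, Hedgehog and Hippo pathways had medians below that of all genes, with few members past the rule. In the EGFR and FGF list 2 of 26 genes were lower and 0 higher, with a median 0.33 below that of all genes. The lower members were sty, an inhibitor of receptor tyrosine kinase signalling, at 17.0 and 7.15 FPKM, and rho, the protease that releases EGFR ligands, at 4.48 and 1.63. The EGFR target aos, an inhibitor of the receptor, stood at 11.1 and 5.72 and the receptor gene Egfr at 25.9 and 28.0. In the Notch list 1 of 30 genes was lower, the ligand Delta, at 17.9 and 8.21 FPKM with a log2 ratio of -1.04. The median of the Notch list was 0.43 below all genes, while E(spl)m8-HLH and E(spl)mgamma-HLH, target genes of the pathway, stood at 0.23 and 0.41.

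The Wingless list had 1 of 28 genes lower, CkIalpha, a kinase that marks Armadillo for destruction, at 158 and 74.0 FPKM. The Dpp and activin list had 1 of 24 higher, the activin-like ligand daw, at 0.52 FPKM in control and 3.05 in regenerating discs, a log2 ratio of 1.41. dpp itself had 8.89 and 8.91 FPKM, and the BMP ligand gene gbb 129 and 164. Hedgehog genes had 0 of 17 past the rule. In the Hippo list Myc, counted above, was the 1 of 24 past the rule, and yki, the growth-promoting coactivator, stood at 33.1 and 45.1 FPKM.

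Wing pouch genes had a median 0.42 below that of all genes, with 1 of 19 lower. That gene was Doc2, a T-box factor, at 23.7 FPKM in control and 10.6 in regenerating discs. The pouch selector vg stood at 26.1 and 19.1 FPKM, its partner sd at 47.4 and 33.9, and nub at 40.1 and 31.7. Notum genes lay 0.11 above the median of all genes, with 10 of 16 above it and 0 past the rule. pnr was at 8.97 and 10.4 FPKM and eyg at 5.44 and 6.96. The territory markers ap and tup went the other way, at 47.25 against 30.27 and at 7.59 against 6.77 FPKM. The difference between pouch and notum genes was not tested.

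Proneural and sensory organ genes had a median 0.52 below that of all genes, with 1 of 13 lower. ac, a proneural factor for sensory bristles, had 24.8, 66.4 and 71.2 FPKM in control discs at 0 h, 15 h and 25 h and 98.0, 42.5 and 23.9 in regenerating discs. Its level was higher at each later time in control and lower at each later time in regenerating discs, and the log2 ratio went from 1.94 at 0 h to -1.54 at 25 h. Its neighbour sc stood at 20.8 and 13.9 FPKM, and emc, the antagonist of both, at 238 and 129, a log2 ratio of -0.88. Syp, an RNA-binding protein of temporal identity in neural stem cells, was lower at 79.2 and 33.1 FPKM. The ecdysone response list had 0 of 25 genes past the rule, with the receptor gene EcR at 13.3 and 7.04 FPKM.

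The lists of axon guidance, polarity and septate junction genes had medians below that of all genes, whereas the list of integrins and their adhesion complex had 9 of 16 genes above it. In the axon guidance list 1 of 27 measured genes lay above that median and 2 were lower, Ephrin and Eph. The receptors PlexA and PlexB, next in order with log2 ratios of -0.91 and -0.88, are also on chromosome 4. Without these 4 genes the other 23 had a median 0.45 below that of genes outside chromosome 4 and the windows, so the low median did not rest on them. Polarity and adherens junction genes had 2 of 27 lower, p120ctn and the polarity kinase aPKC, the latter at 45.9 and 19.3 FPKM. E-cadherin, coded by shg, stood at 30.1 and 20.4 FPKM and alpha-Cat at 75.7 and 49.0. Septate junction genes had 1 of 24 lower, M6, a membrane proteolipid, at 125 and 47.1 FPKM. Relative to genes of like exonic length the medians of these 3 lists were -0.27, -0.20 and -0.23.

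Single genes that bind or process mRNA were lower, of which pAbp, Paip2, Tis11 and DCP2 belong to no list and were chosen after their values were seen. The closest lists went no such way, with 1 of 41 translation factors and 2 of 43 splicing factors lower. pAbp, the poly(A)-binding protein, had 343, 509 and 537 FPKM in control and 443, 469 and 190 in regenerating discs at the 3 times, with a log2 ratio of -1.49 at 25 h. The hnRNP gene Hrb27C was at 287 and 115 FPKM, and eIF4H1, an initiation factor, at 174 and 66.3. Paip2, a repressor that binds the poly(A)-binding protein, was at 39.7 and 16.4. The decay genes Tis11 and DCP2 were at 15.7 against 6.83 and at 24.6 against 11.1. All 6 had log2 ratios between -0.48 and 0.53 at 15 h, inside the rule.

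Dosage compensation genes, which equalise X-linked expression in males, had 3 of 14 lower. The non-coding RNAs roX1 and roX2, which are made in males, were at 96.7 against 35.7 and at 39.1 against 12.4 FPKM, with log2 ratios of -1.41 and -1.58. lncRNA:roX2 was lower at each time, with -1.34 at 0 h and -1.60 at 15 h, whereas lncRNA:roX1 had 0.42 and -0.67. Sxl, the master switch of female development, was lower as well, at 77.8 and 27.3 FPKM. msl-2, the male-limited subunit of the complex, stood at 9.80 and 6.08. The sex of the pooled larvae is not stated, and its part in these ratios was not tested.

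The lists of protein synthesis and of the proteasome had medians above that of all genes, with few members past the rule. Of 81 cytosolic ribosomal protein genes 3 were higher and 0 lower, and 68 lay above the median of all genes, by 0.42 at the median of the list. The 3 were RpL4, at 1606 and 3321 FPKM, RpS24, at 2603 and 5272, and RpL6, at 1790 and 3582. At 15 h and 0 h the median of the ribosomal list was 0.15 and 0.22 below that of all genes, so its place among all genes was different at 25 h. Transfer RNA synthetases had 29 of 33 above the median, at 0.27, and translation factors 29 of 41, at 0.32, with eIF4H1 the 1 lower gene and 0 higher in both lists.

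Proteasome genes had 25 of 34 above the median, at 0.41, and 1 lower. That gene, Prosalpha1 (2R:7827303-7828678), a subunit of the catalytic core, was at 131.6 FPKM in control and 33.5 in regenerating discs. Its neighbours CG30383 and phr were lower too, at 10.5 against 3.15 and at 108 against 41.1 FPKM. Prosalpha1 is known to have a near-identical copy at this locus, so the fragments given to it are uncertain. Nuclear genes of the respiratory chain and ATP synthase had 55 of 65 above the median, at 0.31, with 1 higher, ATPsynD at 191 and 393 FPKM. DNA replication genes lay 0.20 above the median, with 0 of 36 past the rule. pim, the securin that acts in the separation of sister chromatids, was the 1 lower of 36 cell cycle genes, at 136 and 56.9 FPKM, after 53.7 and 118 at 0 h.

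**Figure D4:**
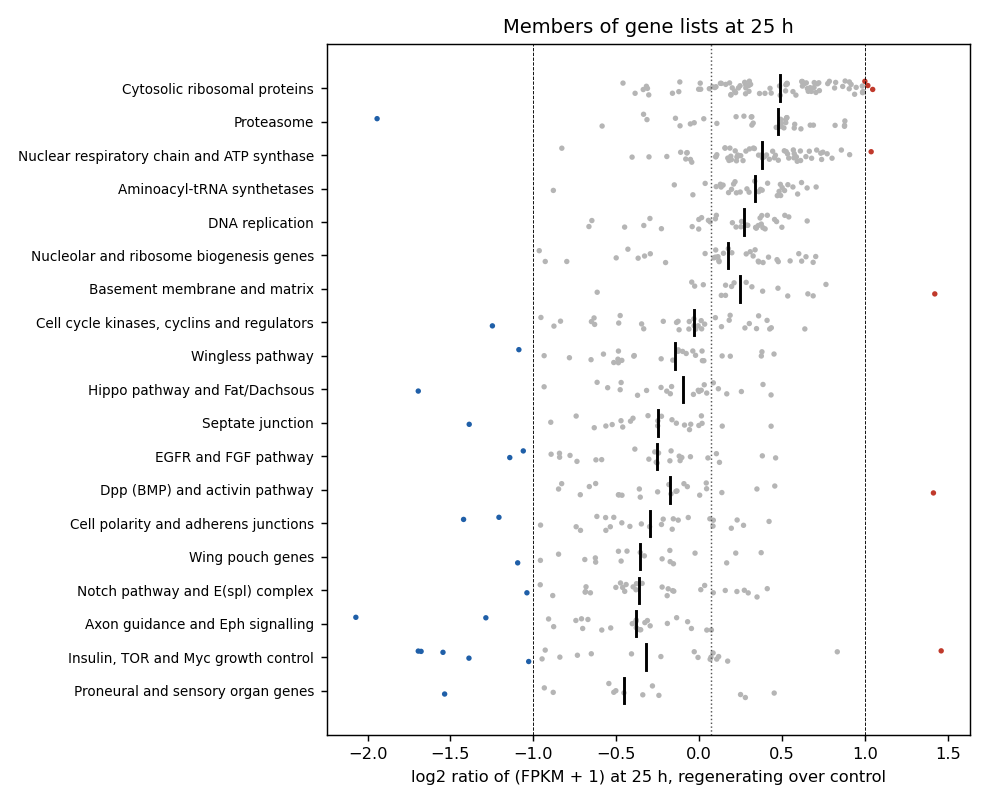
Each point is a measured member of a gene list, placed by its log2 ratio of (FPKM + 1) at 25 h; black bars are medians, the dotted line is the median of all genes at 0.07, and coloured points passed 1 or -1 at the dashed lines. Ribosomal, proteasome and respiratory chain medians lie right of the dotted line, and Notch, axon guidance, growth control and proneural medians lie left of it.

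Transcripts of the mitochondrial genome went against those of the nuclear respiratory genes. Of 14 measured mitochondrial genes 9 were lower and 2 higher, with a median 1.52 below that of all genes. mt:CoI, the core subunit of cytochrome oxidase, was at 9152 FPKM in control and 2439 in regenerating discs, mt:Cyt-b at 6008 and 1487, and the large ribosomal RNA mt:lrRNA at 108562 and 43433. The 2 higher were mt:ND6, at 37.1 and 258, and mt:ND4L, at 83.3 and 214. Summed over the mitochondrial genome, transcripts made 19.7%, 15.2% and 12.8% of all FPKM in control discs at 0 h, 15 h and 25 h, and 5.54%, 4.27% and 4.62% in regenerating discs. The gap was thus present from 0 h and narrower at 25 h, and genotype and regeneration cannot be told apart in it.

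The 15 highest ratios included 3 RNAs from hairpin loci and 7 fat body markers, beside mt:ND6, asRNA:CR45818, 18SrRNA:CR41548, CG10936 and CG34166. hpRNA:CR33940 and hpRNA:CR32207 are hairpin RNAs on 3L, precursors of small interfering RNAs, and CR42842 lies inside the latter, so their fragments cannot be told apart. CR42842 (3L:19478284-19478670) had 15.3, 8.75 and 8.72 FPKM in control and 132, 151 and 208 in regenerating discs, with a log2 ratio of 4.43 at 25 h. hpRNA:CR33940 had 20.6, 15.3 and 15.1 in control and 168, 178 and 218 in regenerating discs, and hpRNA:CR32207 was at 19.4 and 166 FPKM at 25 h. All 3 were higher at every time, and in control discs none of them exceeded 21.5 FPKM. In such gaps, present from 0 h on, genotype and regeneration cannot be told apart.

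Lower genes held similar cases. CG32640 (X:13178005-13178523) had 117, 194 and 165 FPKM in control discs at the 3 times and 4.36, 16.02 and 3.64 in regenerating discs, with a log2 ratio of -5.16, the lowest of all measured genes. Its neighbour CG32641 (X:13184478-13184996), of the same length, had the opposite pattern, 91.2 FPKM in control and 245 in regenerating discs at 25 h. Fragments shared between such neighbours could be split either way, so the pair is uncertain. The antisense RNAs asRNA:CR45822 and asRNA:CR45835, which lie together on 3L, had 16.9 against 1.32 and 11.97 against 1.495 FPKM. They were lower at every time, as was Spn47C, a serine protease inhibitor gene, at 29.2 and 6.87. For these genes too, genotype and regeneration cannot be told apart. Strand use in counting is not stated, so antisense genes and their partners cannot be told apart.

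The fat body is the larval storage organ, and 7 of its 11 measured markers were higher and 0 lower. Fbp1, the receptor for storage proteins, was at 2.85 FPKM in control and 69.3 in regenerating discs, with a log2 ratio of 4.19. The storage protein genes Lsp1alpha, Lsp1beta, Lsp1gamma and Lsp2 were at 1.5, 8.63, 2.81 and 5.58 FPKM in control discs and at 11.98, 110, 40.5 and 64.4 in regenerating discs. Obp99b was at 20.8 and 267 FPKM. The 8 defining markers summed to 260, 7.66 and 56.6 FPKM in control discs at 0 h, 15 h and 25 h and to 407, 149 and 720 in regenerating discs, so the sum varied within each group as well as between them. At 25 h apolpp, a lipoprotein gene among these markers, had 0.76 FPKM in regenerating discs and a listed 0 in control discs. The discs were dissected, and whether the RNA came from fat body on them was not tested.

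Markers of other attached cells moved less. The muscle precursor genes twi, a mesodermal transcription factor, and Him, a repressor of muscle differentiation, were higher, at 7.33 against 17.9 and at 8.92 against 20.9 FPKM. The 4 defining muscle precursor markers summed to 21.9 FPKM in control and 43.9 in regenerating discs. The rise in this sum lay in twi and Him, since htl was at 4.61 against 3.99 and zfh1 at 1 against 1.03. Of 11 list members 2 passed the rule and 6 lay above the median of all genes. The 5 defining hemocyte markers summed to 1.81 and 5.2 FPKM, with 2 listed at 0 in control discs. These 2 were He and srp, at 1.745 and 0.38 in regenerating discs, while eater was at 0.63 and 0.6. In control against regenerating discs the sum went the other way earlier, 6.91 against 3.05 at 0 h and 9.07 against 5.49 at 15 h. Of 9 measured members of the hemocyte list 8 lay above the median of all genes. The 1 past the rule was PPO1, a prophenoloxidase of crystal cells, higher at 0.765 and 3.38. Tracheal markers, 3 genes, summed to 231 and 336 FPKM, of which verm made 167 and 258. Gasp was at 55.605 and 70.935, and trh went the other way, at 8.205 and 7.135. Of the 9 measured members of the tracheal list 0 passed the rule and 4 lay above the median of all genes. The part of these cells in the ratios was not tested. Without fat body markers, male germline genes and genes seen in control discs at 25 h alone, 115 genes were higher and 200 lower.

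**Figure D5:**
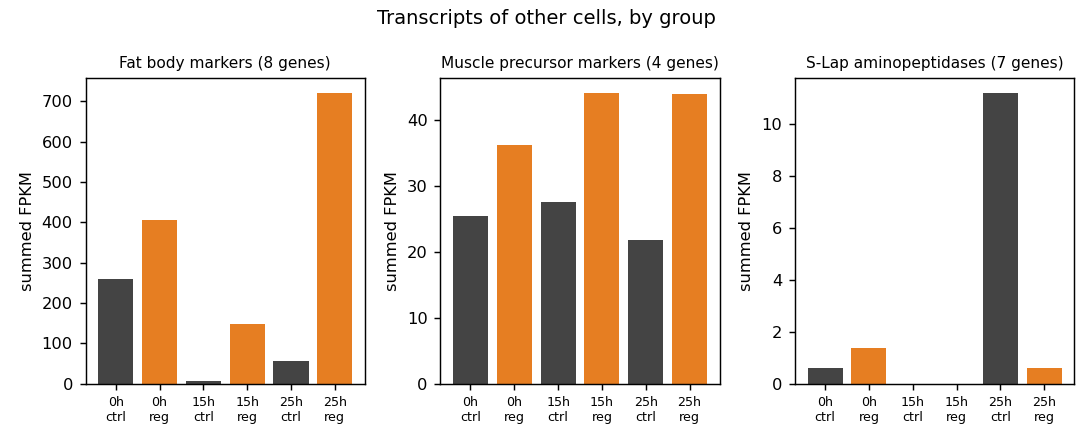
Bars give FPKM summed over the markers of fat body, of muscle precursors and of the S-Lap aminopeptidases of sperm in each of the 6 groups, with control dark and regenerating orange and an axis from 0 in each panel. Fat body markers reach 720 in regenerating discs at 25 h, muscle markers lie above control at each time, and the S-Lap sum, of a family chosen after its values were seen, is 11.2 in control discs at 25 h and at most 1.37 in the other groups.

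Immune and stress genes were higher in single cases. PGRP-LC and PGRP-SA, sensors of bacterial peptidoglycan, were at 1.16 against 6.64 and at 13.8 against 32.9 FPKM, the 2 higher of 13 immune genes, of which 11 lay above the median of all genes. Tsf1, an iron-binding transferrin of the blood, was at 28.6 and 68.5. GstD1, a glutathione transferase, had 1291, 1221 and 1440 FPKM in control and 2960, 3250 and 3099 in regenerating discs, higher at each time. Among 22 genes of endoplasmic reticulum stress, sordd2, a ubiquitin ligase of protein disposal, AsnS, asparagine synthetase, and Thor were higher and Atf6 was lower. sordd2 had 10.6 FPKM in control and 30.1 in regenerating discs, and its log2 ratio had been 2.11 at 0 h and 2.45 at 15 h.

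Heat shock genes had 2 of 22 higher and 3 lower. Hsp70Ab was at 66.6 and 231 FPKM and Hsp70Bbb at 13.5 and 34.1, while Hsp70Ba was lower at 4.43 and 1.56. How fragments were split among the Hsp70 genes, which are close copies of each other, is uncertain. The neighbours Hsp67Bc and CG4456 on 3L were at 8.20 against 3.18 and at 14.1 against 2.93 FPKM and were lower at all 3 times. The abundant chaperone gene Hsp83 stood at 1083 and 964 FPKM.

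Among further higher genes, SPARC, a collagen-binding protein of basement membranes, had 51.3, 45.9 and 49.6 FPKM in control and 111, 115 and 135 in regenerating discs, with log2 ratios of 1.10, 1.31 and 1.42. It was the 1 of 18 matrix genes past the rule, while the collagen IV genes Col4a1 and vkg stood at 4.21 against 7.39 and at 2.56 against 5.06. IP3K1, an inositol phosphate kinase, had 72.6, 47.6 and 47.1 FPKM in control and 201, 143 and 186 in regenerating discs. Gs2, a glutamine synthetase, was at 6.48 and 29.8, and betaTub97EF, a beta-tubulin, at 26.0 and 59.7. AstA, which codes for the neuropeptide allatostatin A, was at 1.67 and 11.5. Of 20 cuticle protein genes Cpr49Ag, Cpr65Ec and Cpr64Aa were higher, at 171, 56.0 and 202 FPKM in regenerating discs against 61.4, 24.4 and 99.985 in control discs, and Cpr66D was lower at 60.2 and 29.2.

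Control discs at 25 h held low levels of transcripts known from the male germline. There were 57 genes at 1 FPKM or more in control discs at 25 h alone, of which 25 were at 0 in every other group. In the other groups such genes numbered from 45 in regenerating discs at 15 h to 137 in regenerating discs at 0 h, so the count itself does not stand out. Of a list of 18 genes of spermatid development, drawn up after these values were seen, 17 are among the 57, so its sums only describe that choice. They came to 33.8 FPKM in control discs at 25 h and to between 1.13 and 2 in the other groups. Among them ocn stood at 3.78 FPKM, S-Lap1 at 3.27 and loopin-1 at 2.65 in control discs at 25 h. Of the 209 lower genes 9 were among the 57, CG12699 among them at 5.2 and 0.445 FPKM, and 200 were not. The list of gut, salivary gland and testis markers had 0 genes above 0 in both groups. The part of this signal in other ratios was not tested.

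Close to the rule, RpL6, Mlc2 and Cpr64Aa lay just inside at the higher end with log2 ratios of 1.0003 to 1.005, and CG14777, ETH and xit just outside at 0.993 to 0.999. At the lower end homer, spoon and CG45086 lay just inside at -1.003 to -1.008, and FBgn0044510, salto and WRNexo just outside at -0.996 to -0.999.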

How the data were processed

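FPKM values were deposited by the authors as 1 column per group, merged over 2 libraries. Per the submitters' processing notes, RSEM and STAR 2.4.0j were used with the build dm6. The way of merging is not given in the sources used. The table has no counts, so read depth is unknown and no interval could be given. In 5 of the 6 columns used, values with 3 decimals had lost their point: whole numbers of at least 1000 ending in 5 were divided by 1000, which made 48.4% of the values above 0 in control and 44.2% in regenerating discs at 25 h. The 3 whole numbers not ending in 5 were kept. This reading was made from the values. 1 column without a sample was not used. Columns sum to between 1247530 and 1504200 FPKM.

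Groups followed the sample titles. Symbols matched 16912 identifiers, and coordinates were read from Ensembl's annotation of BDGP6, the assembly of dm6. Ratios used a pseudocount of 1 FPKM, a minimum of 1 FPKM and a rule of 2-fold, with Python 3.11.15, numpy 2.4.6 and pandas 2.3.3. The calculations were tested on simulated data. Members of 66 gene lists were counted, and each list's median was set beside that of all genes. Named were the 15 highest and 15 lowest ratios at 5 FPKM or more, list members past the rule or with the largest changes or levels, genes past the rule at an earlier time too, and the 3 genes nearest the rule on each side. Other genes named were chosen after their values were seen. The members and lists were chosen with earlier results of these data known. 20 mistaken or unmatched list entries were removed, and the windows and the male germline list were set, after values were seen. Alternatives were other pseudocounts, filters, scalings and folds, genes at 0 kept, restored values left out, nuclear coding genes alone, and, added later, genes relative to others of like length and without genes of other cells. 1 member of the growth control list is counted but not reported by name here.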

Additional observations from a re-analysis of the deposited data

Results flagged for a closer look

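Of the 209 lower genes 29, and of the 122 higher genes 2, passed the 2-fold rule in the opposite direction at 0 h. Of these, 9 are among the named genes. At 0 h 195 of the 209 and 119 of the 122 were measured. Over all genes measured at 0 h, 6.86% were higher and 0.892% lower. Relative to all genes the 209 had a median log2 ratio of -0.06 at 0 h, so as a set they stood near the middle then. The difference between the times was not tested, and the 0 h ratios start from a median of 0.47 over all genes. Among genes of development and cell division, the proneural gene ac had -1.54 at 25 h and 1.94 at 0 h, and the securin gene pim -1.25 and 1.13. In the chromosome 4 and centromeric group, Ephrin had -2.07 and 1.40, the cohesin loader gene Nipped-B -1.98 and 1.04, and the vesicle tethering gene lt -1.34 and 1.11. The histone variant gene His3.3B had -1.08 and 1.6, and CG45086, just inside the rule, -1.01 and 1.09. The chaperone genes Hsp70Ab and Hsp70Bbb went the other way, with 1.78 and 1.28 at 25 h and -1.49 and -3.01 at 0 h.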

How the results depend on the processing

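No paired analysis was possible because the deposited columns are merged over the replicates, and for the same reason no library could be left out. None of the 106 genes named by the rule changed direction under an alternative, but this could hardly have come out otherwise. Their ratios lie past the rule or next to it, and other pseudocounts, filters and folds cannot change a direction. The scalings moved the median log2 ratio of all genes only from 0.07 to 0.026 and 0.009. Directions were not examined for other genes in the text. Higher and lower calls were 64 and 117 with a pseudocount of 5 FPKM, 593 and 742 with a rule of 1.5-fold, and 19 and 8 with a rule of 4-fold, where the higher calls made up 70.4% rather than 36.9%. With genes at 0 in 1 column kept they were 742 and 260, or 74.1% higher. With restored values left out they were 38 and 69 among 1894 genes, since fewer genes could be measured. Median-of-ratios and equal-sum scaling gave shares of 31.0% and 27.6% higher. Relative to genes of like length, 96 were higher and 259 lower. List members gave 159 and 159 with 1.5-fold, 8 and 4 with 4-fold, and 97 higher with genes at 0 kept. Lower genes on chromosome 4 were 32 and 1 with 1.5-fold and 4-fold, and those of the centromeric windows 62 and 1. Of the mitochondrial genes 2 were lower with 4-fold. Without restored values few members of these sets could be measured. List members then gave 12 higher and 17 lower of 363. Lower genes were 2 of 15 on chromosome 4, 8 of 30 in the windows and 1 of 3 in the mitochondrial genome. The 1 fat body marker still measured was higher. Other causes of these moves were not tested.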
